A study of Arabidopsis thaliana with 24 samples.

Results

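Among the 32833 genes of the count table, 3 were described here that were close to silent in wild-type Arabidopsis seedlings and were counted in the exa1-1 mutant: AT1G64795, which encodes a short uncharacterised protein, AT1G53480, named MRD1, and AT3G05955, a long noncoding RNA. They were selected on these counts, as genes near 0 in wild type and counted in exa1-1 in all 4 conditions, so the difference between genotypes is given below as a description and was not tested. The libraries hold polysome-bound RNA, that is, RNA recovered with ribosomes, from whole 9-day-old seedlings of the exa1-1 line and of wild type Col-0. Each genotype was treated for 60 min in 2 experiments, with 200 mM NaCl against 1/2 MS medium (called MS here) and at 39 °C against 23 °C, with 3 replicates in each of the 8 groups. The design text calls the replicates independent and biological, and describes both MS and 23 °C as normal growth. A single mutant line was used, so loss of EXA1 and any other difference between that line and Col-0 cannot be told apart, and with no total RNA analysed here the amount of an mRNA and its loading on ribosomes cannot be told apart. In whole seedlings, fewer cells expressing a gene and less RNA per cell cannot be told apart either.

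EXA1, also known from virus-resistance work, encodes a GYF-domain protein thought to act in translation through the cap-binding machinery. MRD1 stands for mto 1 responding down: the gene was named for its lower mRNA in the mto1-1 mutant, which overaccumulates methionine because its cystathionine gamma-synthase escapes feedback control. Near-silent plant genes are often held off by DNA methylation and repressive histone marks, and some become visible in mutants of that machinery. Most long noncoding RNAs are not thought to be translated, although many are found in polysome fractions.

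EXA1 itself had 78 to 219 reads in the 12 exa1-1 libraries and 992 to 2117 in the 12 wild-type libraries, and these ranges did not overlap. Library totals ran from 17861136 to 20629439 reads. The shoot marker RBCS1A, a Rubisco small subunit, lay between 4720 and 14400 CPM (reads scaled to the same library total) over all libraries, and the root marker CASP1, of the Casparian strip, between 5.65 and 22 CPM, so RNA of both organs was present.

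AT1G64795 lies on chr1:24082579-24082848 (TAIR10.1, plus strand) and has 2 coding exons, of 168 and 33 bases, with no annotated UTR. The gene is printed whole, because it is short and carries the largest signal, with its exons in capitals and its intron in lower case.
AT1G64795: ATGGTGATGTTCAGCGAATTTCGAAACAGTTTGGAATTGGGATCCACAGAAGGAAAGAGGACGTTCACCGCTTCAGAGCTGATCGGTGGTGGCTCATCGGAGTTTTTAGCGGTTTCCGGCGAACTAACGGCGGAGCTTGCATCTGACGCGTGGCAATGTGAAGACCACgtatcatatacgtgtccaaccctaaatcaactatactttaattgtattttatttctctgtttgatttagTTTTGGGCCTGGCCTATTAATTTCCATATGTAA
The 250 bases before its annotated start (chr1:24082329-24082578, plus strand), those before MRD1 (chr1:19964713-19964962, minus strand) and those before AT3G05955 (chr3:11586549-11586798, minus strand) are shown so that the 3 upstream regions can be compared. The annotated start of AT1G64795 is its start codon, and from -40 its window lies under an exon of ILA, an opposite-strand gene described below. The MRD1 window lies before its 2-exon transcript, and its single-exon transcript starts 524 bases further on. Capitals mark matches, on either strand, to ACGTG (core of abscisic acid and light elements), CCGAC (core of drought and cold elements), GAANNTTC (a short heat shock element), TTGAC (core of the W-box), TGACG (TGA factor element) and TATAAA. The matches shown do not overlap each other.
AT1G64795 upstream: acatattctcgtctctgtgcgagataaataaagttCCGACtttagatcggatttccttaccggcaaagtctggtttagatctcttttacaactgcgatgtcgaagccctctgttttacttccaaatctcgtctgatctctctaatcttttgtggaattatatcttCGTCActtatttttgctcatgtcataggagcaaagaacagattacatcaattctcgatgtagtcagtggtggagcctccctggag
MRD1 upstream: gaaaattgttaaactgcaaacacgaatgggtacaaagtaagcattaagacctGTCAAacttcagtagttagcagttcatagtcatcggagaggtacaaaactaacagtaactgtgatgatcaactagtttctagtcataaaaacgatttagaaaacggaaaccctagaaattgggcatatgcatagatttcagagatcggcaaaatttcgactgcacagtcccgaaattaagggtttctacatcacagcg
AT3G05955 upstream: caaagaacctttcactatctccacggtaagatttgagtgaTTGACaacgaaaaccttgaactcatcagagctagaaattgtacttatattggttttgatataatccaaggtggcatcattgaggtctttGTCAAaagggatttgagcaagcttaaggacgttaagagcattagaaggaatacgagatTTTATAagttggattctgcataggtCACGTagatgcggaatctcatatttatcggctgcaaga
AT1G64795 had 1 match to CCGAC and 1 to TGACG, MRD1 had 1 match to TTGAC, and AT3G05955 had 1 match to ACGTG, 2 to TTGAC and 1 to TATAAA. Over the upstream windows of 32546 genes of the table, 21.8% held ACGTG, 11.7% CCGAC, 9.68% GAANNTTC, 44.3% TTGAC, 18.4% TGACG and 46.1% TATAAA. No motif of the 6 was found in all 3 windows.

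AT1G64795 was the strongest of the 3 genes. In MS it had 668, 683 and 726 reads in the exa1-1 libraries, against 0, 0 and 4 in wild type. Under NaCl it had 1290, 1504 and 1538 reads in exa1-1, against 1, 6 and 2 in wild type. At 23 °C the exa1-1 libraries had 2901, 2515 and 2748 reads, against 2, 1 and 7 in wild type. In every one of these groups the lowest exa1-1 library lay far above the highest wild-type library. At 39 °C it had 587, 571 and 592 reads in exa1-1, against 2, 0 and 5 in wild type, again without overlap. Over 12 libraries each this came to 16323 reads in exa1-1 and 30 in wild type, where 3 libraries had no read.

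Scaled to library totals, AT1G64795 averaged 37.9 ± 0.963 CPM in exa1-1 and 0.0738 ± 0.128 CPM in wild type in MS (SD, n = 3 each, here and below). The summed exa1-1 reads over the summed wild-type reads, each divided by its summed library totals, gave a ratio of 535 in MS, with a 95% interval from 209 to 1967 that covers counting error only, as do all intervals on ratios below. The ratio was 484 (254.5 to 1058) under NaCl, 777 (422 to 1621) at 23 °C and 253 (122 to 629) at 39 °C. Its size rests on a few wild-type reads, as ratios of mean CPM without 1 library show. In these ratios the wild-type mean was set to no less than 3 reads over the summed library totals. The ratio became 950 without replicate 2 of wild type under NaCl and 1710 without replicate 3 of wild type at 23 °C. At 39 °C it became 168 and 395 without replicates 2 and 3 of wild type. The 395 rests on the floor of 3 reads, since 2 and 0 wild-type reads were left. Per length, in FPKM (fragments scaled to the gene's exon length and the library total), AT1G64795 reached 188 ± 4.79 in MS, 393 ± 29.5 under NaCl, 710 ± 30.4 at 23 °C and 161 ± 3.61 at 39 °C in exa1-1. These levels gave it rank 569, 198, 79 and 655 from the top of the 32833 genes in those exa1-1 groups, against rank 21368, 19463, 19196 and 17061 in the matching wild-type groups. Per length, it was thus among the abundant polysome-bound RNAs of the seedling in exa1-1, and in wild type it lay below most counted genes. These ranks rest on scaling to 201 exon bases, and no rank by share of reads was taken.

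**Figure D1:**
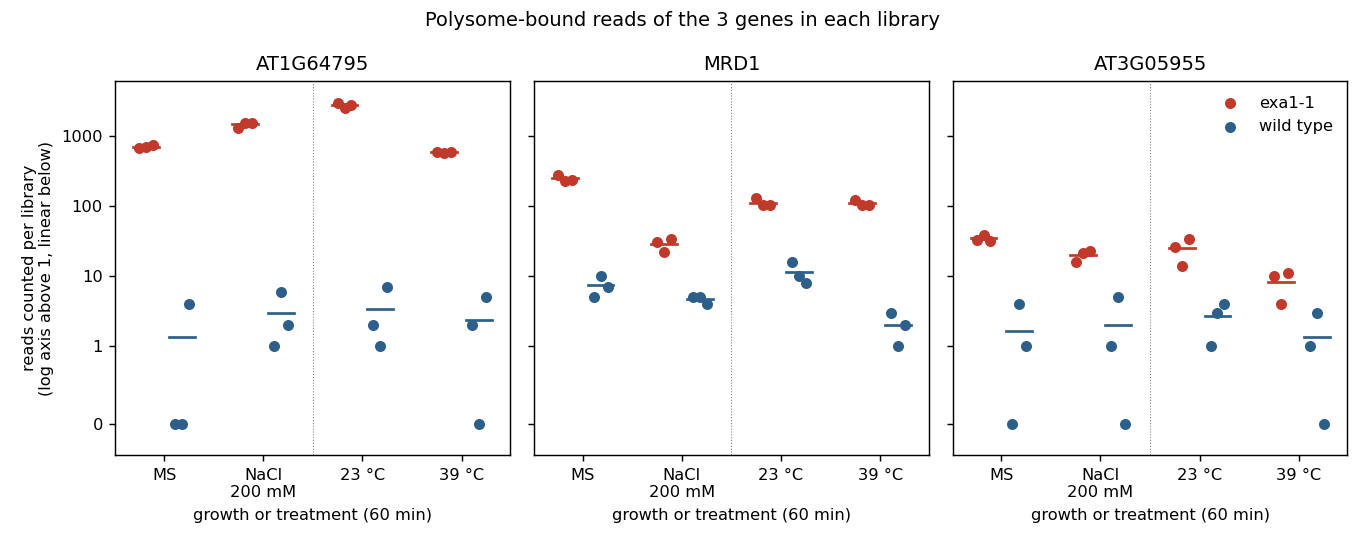
Reads of AT1G64795, MRD1 and AT3G05955 in each library (points) with group means (bars), exa1-1 left of wild type in each condition; the axis is logarithmic above 1 and linear below. The 3 exa1-1 points lie above the 3 wild-type points in all 12 pairs of groups, by the widest margin for AT1G64795 and by the narrowest for AT3G05955 at 39 °C, where 4, 10 and 11 reads stand against 0, 1 and 3.

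MRD1 was counted in every library of both genotypes, so in wild type it was low and not silent. In MS it had 277, 222 and 236 reads in exa1-1, against 5, 10 and 7 in wild type. Under NaCl it had 30, 22 and 34 reads in exa1-1, against 5, 5 and 4 in wild type. At 23 °C it had 128, 102 and 103 reads in exa1-1, against 16, 10 and 8 in wild type. The exa1-1 libraries under NaCl were far below the other exa1-1 libraries, and still above every wild-type library of any condition. At 39 °C it had 121, 104 and 103 reads in exa1-1, against 3, 1 and 2 in wild type. MRD1 averaged 13.4 ± 1.6 CPM in exa1-1 and 0.396 ± 0.159 CPM in wild type in MS, a ratio of 34.5 (22.6 to 55.3). The ratio was 6.17 (3.49 to 11.8) under NaCl, 9.32 (6.54 to 13.7) at 23 °C and 55.2 (25.1 to 152) at 39 °C.

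AT3G05955 was the weakest of the 3. In MS it had 33, 38 and 32 reads in exa1-1, against 0, 4 and 1 in wild type. Under NaCl it had 16, 21 and 23 reads in exa1-1, against 1, 5 and 0 in wild type. At 23 °C it had 26, 14 and 34 reads in exa1-1, against 1, 3 and 4 in wild type. The groups did not overlap in these 3 conditions, but a single library held at most 38 reads. At 39 °C it had 10, 4 and 11 reads in exa1-1, against 1, 3 and 0 in wild type, so that the lowest exa1-1 library and the highest wild-type library were 1 read apart. AT3G05955 averaged 1.88 ± 0.218 CPM in exa1-1 and 0.0931 ± 0.117 CPM in wild type in MS, with a ratio of 21.2 (8.81 to 66.8). The ratio was 10.05 (4.36 to 28.5) under NaCl, 8.81 (4.24 to 21.2) at 23 °C and 6.31 (2.18 to 24.96) at 39 °C. As a ratio of mean CPM it was 10.3 under NaCl and 6.84 there without replicate 3 of wild type, and 6.33 at 39 °C and 4.22 there without replicate 3 of wild type. Per length it stood at 3.46 ± 0.400 FPKM in exa1-1 in MS, beside 10.7 ± 1.28 FPKM for MRD1 and 188 ± 4.79 FPKM for AT1G64795 in the same libraries.

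**Figure D2:**
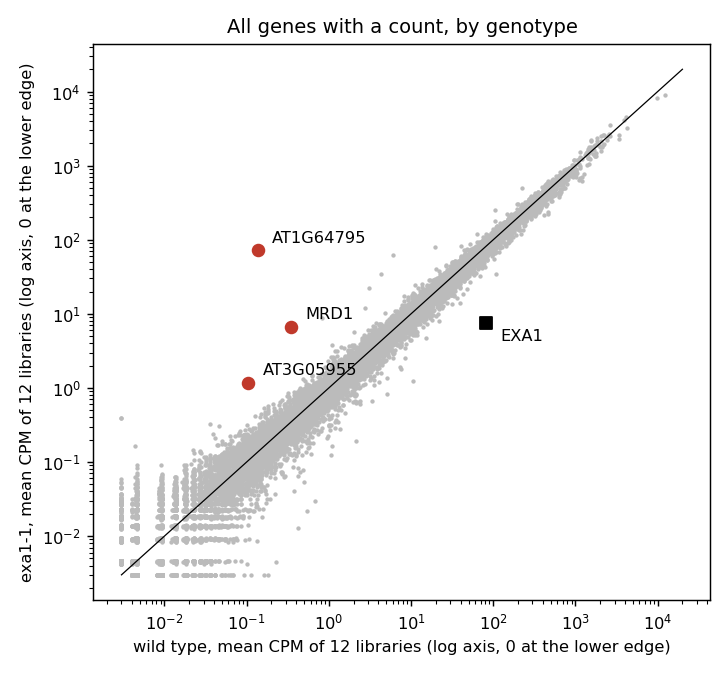
Mean CPM over 12 exa1-1 libraries (vertical, log axis) against mean CPM over 12 wild-type libraries (horizontal, log axis) for each gene with a read; the line marks equal levels and genes at 0 sit at the lower edge. AT1G64795 (73 against 0.136 CPM), MRD1 (6.71 against 0.346 CPM) and AT3G05955 (1.18 against 0.105 CPM) lie above the cloud, and EXA1 lies below it.

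Few genes shared this pattern. The limits first set for it were a wild-type mean below 0.5 CPM (here scaled by TMM, the trimmed mean of M-values), an exa1-1 mean at least 10 times as high and no overlap, in each of the 4 conditions. For the ratio, the mean of the lower genotype was set to no less than 3 reads over the summed library totals of its group. These limits were met by 1 gene of 32833, AT1G64795, and in the opposite direction by 0 genes. MRD1 missed the limit on the wild-type level, with 0.566 CPM at its highest, and the limit on the ratio, and AT3G05955 missed the limit on the ratio. With limits of 1 CPM and a ratio of 5, chosen after the values were seen, the genes that passed were the 3 described here, with 1 gene in the opposite direction. The smallest of the 4 ratios was 260 for AT1G64795, 6.58 for AT3G05955 and 5.95 for MRD1 on this scale. Next by this ratio stood AT2G11405, with 87 reads in exa1-1 against 0 in wild type. Its smallest ratio of 3.33 is set by the floor of 3 reads, and its wild-type level was below that of the 3 genes. AT1G65760 followed, with 2.73 and 73 reads in exa1-1 against 8 in wild type.

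The comparison of conditions within exa1-1 was not itself used to select the genes. The selection did require reads in exa1-1 in all 4 conditions, which bounded how far a gene could fall. The adjusted p-values are thus not fully independent of the selection. Responses were tested with edgeR's quasi-likelihood test, with Benjamini-Hochberg adjustment over all genes tested and a call at an adjusted p below 0.05. Under NaCl, 2 of the 3 genes changed, in opposite directions, where 73.1% of all genes tested were called. AT1G64795 rose under NaCl against MS, with a log2 fold change of 1.24 ± 0.07 (SE) and an adjusted p of 3.04e-18 in edgeR. MRD1 fell by 2.91 on the log2 scale (SE 0.20; adjusted p = 4.99e-18, edgeR), the largest of the 3 responses to NaCl, equal to a level 7.53 times lower. For AT3G05955 the log2 fold change was -0.60, with a 95% interval from -1.29 to 0.09 (adjusted p = 0.106, edgeR). By library totals alone it was -0.77 and passed the test (adjusted p = 0.0358, edgeR). In wild type the NaCl libraries held 9 reads of AT1G64795 against 4 in MS, a ratio of 2.31 with an interval from 0.646 to 10.3, and 14 reads of MRD1 against 22, a ratio of 0.654 (0.31 to 1.34).

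At 39 °C against 23 °C, 79.4% of all genes tested were called, and the scaling decided part of the result. AT1G64795 fell by 1.19 on the log2 scale (SE 0.07; adjusted p = 1.12e-21, edgeR), and by 2.14 with library totals alone, so it was lower on both scales. MRD1 rose by 1.01 (SE 0.19; adjusted p = 3.35e-06, edgeR) relative to the TMM scale, but was at 0.06 (adjusted p = 0.772) by library totals alone, where its share of reads was 6.05 ± 0.610 CPM at 39 °C and 5.81 ± 0.492 CPM at 23 °C. Library totals moved the median of all genes to -1.05 in this comparison, against -0.10 with TMM, so MRD1 kept its share of the reads while the median gene lost share. AT3G05955 had a log2 fold change of -0.53, with an interval from -1.56 to 0.50 (adjusted p = 0.333, edgeR), and -1.47 by library totals (adjusted p = 0.00525, edgeR).

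The 2 unstressed set-ups of exa1-1 also differed, with 66.7% of all genes called between 23 °C and MS. AT1G64795 was higher at 23 °C than in MS, by 2.23 ± 0.07 on the log2 scale (adjusted p = 4.19e-31, edgeR), the largest of its 3 responses on the TMM scale. MRD1 was lower at 23 °C (log2 fold change -0.89 ± 0.16; adjusted p = 1.46e-06, edgeR). AT3G05955 stood at -0.23, with an interval from -0.99 to 0.53 (adjusted p = 0.61, edgeR). These controls belong to separate experiments, and growth set-up and experiment cannot be told apart.

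**Figure D3:**
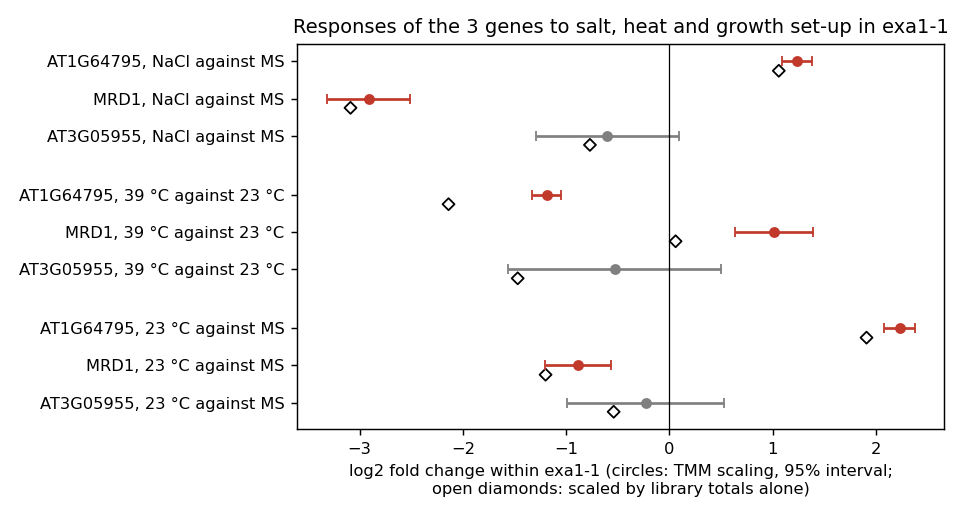
Log2 fold changes within exa1-1 with TMM scaling (circles, with 95% intervals; red where called, grey where not) and with library totals alone (open diamonds). AT1G64795 and MRD1 lie on opposite sides of 0 in all 3 comparisons on the TMM scale, while the diamond of MRD1 at 39 °C lies at 0.06.

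As a description, the ratio of exa1-1 to wild type for MRD1 ran from 6.17 under NaCl to 55.2 at 39 °C. The selection required the genotype difference to be positive, and wild type to be near 0, in each condition. It thus bounded the wild-type response that enters the interaction, so the adjusted p-values here are not independent of the selection. The interaction was tested in the same fits, as a test added after the values were seen. Under NaCl the MRD1 response was more negative in exa1-1 than in wild type, with an interaction of -2.46 ± 0.55 on the log2 scale (adjusted p = 0.00215, edgeR), where 20.0% of all genes were called. Under heat the MRD1 response was more positive in exa1-1, with an interaction of 2.58 ± 0.69 (adjusted p = 0.00119, edgeR), where 16.9% were called. As shares of reads, the level at 39 °C over that at 23 °C was 1.04 (0.889 to 1.21) in exa1-1 and 0.175 (0.0602 to 0.423) in wild type, where 6 reads stood against 34. AT1G64795 had interactions of -0.04 ± 0.95 for salt (adjusted p = 0.953, edgeR) and -1.56 ± 0.74 for heat (adjusted p = 0.175, edgeR), and AT3G05955 of -1.02 ± 1.11 (adjusted p = 0.566, edgeR) and -0.43 ± 1.22 (adjusted p = 0.867, edgeR). These 2 genes had 30 and 23 wild-type reads in all, and their interactions were imprecise: the narrowest of the 4 intervals ran from -3.04 to -0.07 and the widest from -2.87 to 2.01 log2 units.

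Within the mutant, AT1G64795 and MRD1 thus responded differently, while AT3G05955 was called in none of the 3 comparisons with TMM scaling. The r values of AT3G05955 rest on 4 to 38 reads in each exa1-1 library. Over the 12 exa1-1 libraries, Pearson's r of log2(CPM + 0.5) was -0.377 between AT1G64795 and MRD1, -0.165 between AT1G64795 and AT3G05955 and 0.140 between MRD1 and AT3G05955. Over all 24 libraries the same values were 0.837, 0.895 and 0.831, and these carry the difference between genotypes that selected the genes. Of 21916 other genes compared over 24 libraries, the most like AT1G64795 was the plant defensin gene PDF1.3 (r = 0.897; 62.1 CPM in exa1-1 and 5.96 CPM in wild type), followed by AT3G05955, the vesicle-tethering gene HIT1 (r = 0.867), ADL6 (r = 0.862), a dynamin-related gene, and the defensin gene PDF1.2 (r = 0.847). HIT1 was also the most like MRD1 (r = 0.875), followed by SEC6 (r = 0.850), an exocyst subunit, the other two genes and AT5G65950 (r = 0.824). The most like AT3G05955 were the other two genes, then HIT1 (r = 0.816), AT5G01320 (r = 0.765) and SEC5B (r = 0.759), another exocyst subunit. HIT1 averaged 34.2 CPM in exa1-1 and 27.2 CPM in wild type, and Pearson's r does not carry the size of that difference. Within exa1-1 alone, the most like AT1G64795 were AT2G17990 (r = 0.990), AT1G15740 (r = 0.987) and NDL1 (r = 0.986). AT2G17990 averaged 79.4 CPM in exa1-1 and 78.3 CPM in wild type. For MRD1 they were AT4G22490 (r = 0.984), AT1G23720 (r = 0.983) and AT2G40010 (r = 0.982). For AT3G05955 they were MEF19 (r = 0.864), AGD1 (r = 0.861) and AT3G21470 (r = 0.860). The libraries compared share groups and experiments, so these are descriptions.

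AT1G64795 and MRD1 overlap genes on the opposite strand. Of the 201 exon bases of AT1G64795, 142 lie under an exon of 1 of the 3 annotated transcripts of ILA (AT1G64790, minus strand), which encodes ILITHYIA, a HEAT-repeat protein of plant immunity and translation control. The other 2 ILA transcripts begin 396 and 486 bases before the start of AT1G64795 and run away from it. Of the 1250 exon bases of MRD1 (chr1:19963047-19964712, minus strand), 922 lie under exons of 1 of the 2 annotated transcripts of HEI10. HEI10 (AT1G53490, plus strand) encodes a RING protein needed for class I meiotic crossovers. AT1G07887, a noncoding gene with 0 reads in every library, covers 1039 of the MRD1 exon bases. AT3G05955 (chr3:11586005-11586548, minus strand) is a single exon of 544 bases with no overlapping gene.

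**Figure D4:**
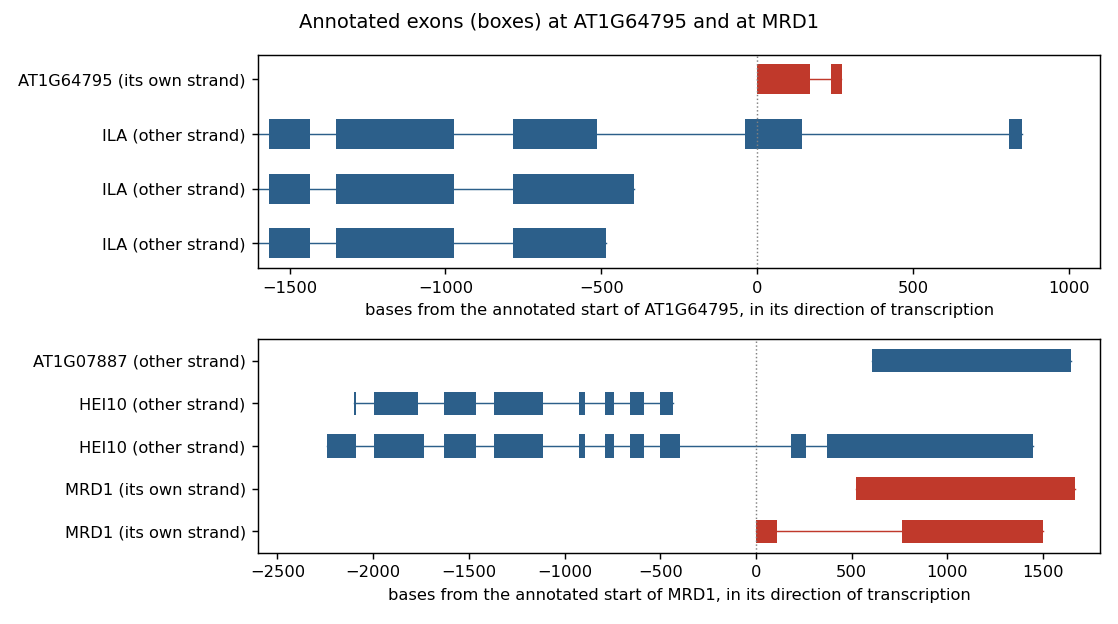
Annotated exons (boxes) and introns (lines) of AT1G64795 and MRD1 (red) and of the genes on the opposite strand (blue), by distance in bases from the annotated start of AT1G64795 (upper) and MRD1 (lower). A single ILA transcript reaches into the first exon of AT1G64795, whereas 1 of the 2 HEI10 transcripts and AT1G07887 cover most of the MRD1 exons.

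The libraries were strand-specific per the labels, and the strand setting of the counting is not given in the sources used here. In the table, 353 of 738 counted genes whose exons lie wholly under exons of the other strand had at least 100 reads over the 24 libraries, which a count that ignores strand and drops ambiguous reads would leave at 0. Genes with no read could not enter the 738, and AT1G07887, which lies wholly under an MRD1 exon, had 0 reads. ILA differed between genotypes far less than AT1G64795 did: it averaged 110 CPM in exa1-1 and 87 CPM in wild type in MS, where AT1G64795 stood at 37.9 and 0.0738 CPM. ILA was higher in exa1-1 in all 4 conditions, with log2 fold changes of 0.26 ± 0.05 in MS (adjusted p = 4.22e-05), 0.23 ± 0.05 under NaCl (adjusted p = 0.00037), 0.61 ± 0.06 at 23 °C (adjusted p = 1.03e-11) and 0.59 ± 0.08 at 39 °C (adjusted p = 1.24e-08, all edgeR). HEI10 was higher in exa1-1 in MS, at 2.84 CPM in exa1-1 and 1.10 CPM in wild type, with a log2 fold change of 1.31 ± 0.29 (adjusted p = 0.000345, edgeR). In the other 3 conditions HEI10 stood at 0.38 ± 0.29, -0.09 ± 0.36 and 0.28 ± 0.35 and did not pass the test. MS was also the condition in which MRD1 was highest in exa1-1, and whether reads of one gene were counted to the other was not tested.

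Similar sequence elsewhere in the genome was looked for, since it could share reads. AT1G64795 had 0 other matches of at least 100 bases on the 5 chromosomes. MRD1 had 7, the most similar on chr2:2331617-2331835 with 93.2% identity over 220 aligned bases. It lies in no annotated gene, so reads placed there are not shown by these counts. The longest was on chr5:725458-726512 with 89.9% identity over 1060 aligned bases, at AT5G03090. That gene had 53 reads over the 12 exa1-1 libraries and 49 over the 12 wild-type libraries, with at most 8 and 14 in a library. The first 30 coding bases of the single-exon MRD1 transcript (chr1:19963809-19963838, minus strand), which also lie in a non-coding exon part of HEI10 on the other strand, are set beside the aligned stretch of that copy (chr5:725723-725752, plus strand) to show how the copies can be told apart, with the 4 differing bases in capitals.
MRD1: AtgActctcgacgacGgcagcagatctgGt
Copy on chromosome 5: TtgGctctcgacgacTgcagcagatctgAt
AT3G05955 had 16 such matches, the most similar on chr3:11578845-11579094 with 93.5% identity over 263 bases. Only the edge of that match touches a gene, AT3G29740 (chr3:11578468-11578847), which had 0 reads in every library. Most of the match lies in no annotated gene, so reads placed there are not shown by these counts. Another match, with 88.3% identity over 223 bases, lies beside AT3G05955 at chr3:11585618-11585836, in no annotated gene. Reads that fit several places could be placed at any of them, and the handling of such reads is not given in the sources used here.

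The genes next to the 3 genes were picked by position. The limits set for the pattern say nothing about them, since only AT1G64795 met these limits among all 32833 genes. Of the 30 nearest genes, 5 on each side of each gene, 19 were tested in the salt experiment and 17 in the heat experiment. In exa1-1 against wild type 8 of 19 (42.1%) were called in MS, where 36.0% of all genes were called, with 6 higher and 2 lower. Under NaCl 11 of 19 (57.9%) were called, against 32.4% of all genes, with 7 higher and 4 lower; 7 of these lay among the 8 tested around AT1G64795 (87.5%), 4 higher and 3 lower. At 23 °C 6 of 17 (35.3%) were called, against 34.8% of all genes, with 5 higher and 1 lower. At 39 °C 7 of 17 (41.2%) were called, against 28.8%, with 1 higher and 6 lower. The median log2 fold change of these neighbours was -0.02, 0.07, -0.09 and -0.08 in the 4 conditions. Besides ILA, 1 neighbour was called in all 4: PnsB2, a subunit of the chloroplast NDH complex, was lower in exa1-1, with log2 fold changes of -0.53, -0.74, -0.54 and -0.22. Among the called neighbours, the largest rise was a log2 fold change of 1.31, for HEI10 in MS and for the transporter-family gene AT1G64820 under NaCl (1.13 CPM in exa1-1 and 0.441 CPM in wild type). AT1G64820 also had the highest value of any neighbour, 2.87 ± 1.80 in MS, at 0.184 CPM in exa1-1 and 0.0184 CPM in wild type, and missed the threshold (adjusted p = 0.0568, edgeR). Around AT3G05955, 6 of the 10 nearest genes had no read in any library and 3 were tested. The closest, AT3G29760, was well counted in both genotypes, with 18.5 CPM in exa1-1 and 12.7 CPM in wild type in MS, and was higher in exa1-1 there (0.46 ± 0.10; adjusted p = 0.000161, edgeR).

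**Figure D5:**
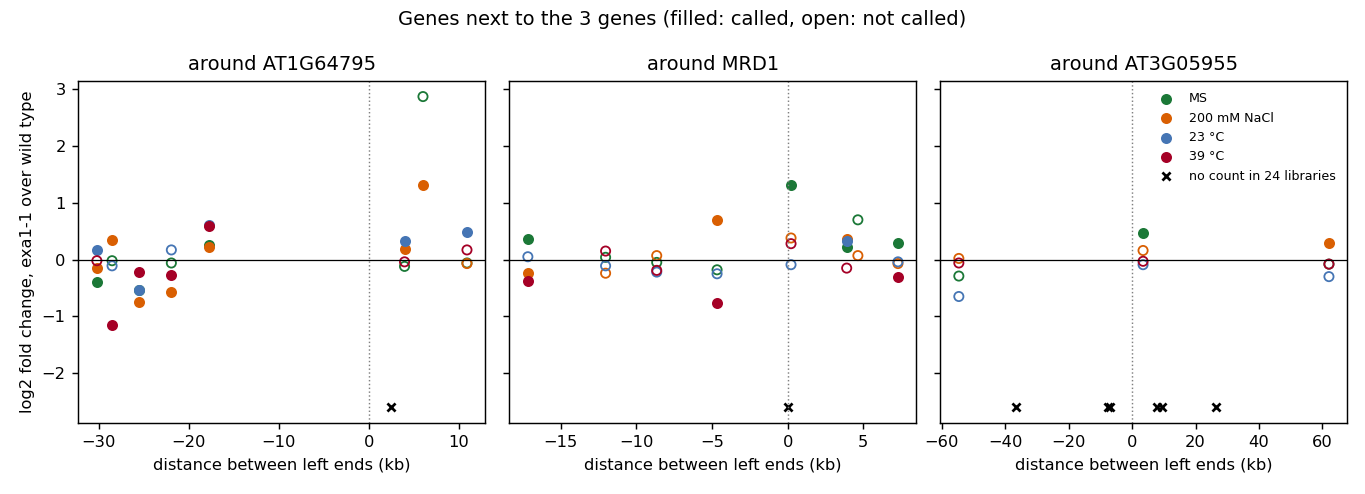
Log2 fold change of exa1-1 over wild type for the 5 nearest genes on each side of AT1G64795, MRD1 and AT3G05955, by the distance between left ends along the chromosome (ILA and HEI10 overlap AT1G64795 and MRD1). Filled points were called, open points were not, crosses mark genes with no read; the called points lie between -1.16 and 1.31.

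Methionine genes were examined because of the name of MRD1, and all 17 on the list were tested. In exa1-1 against wild type 3 were higher and 5 lower in MS, 7 higher and 3 lower under NaCl, 11 higher and 3 lower at 23 °C, and 10 higher and 3 lower at 39 °C, where 36.0%, 32.4%, 34.8% and 28.8% of all genes were called in either direction. With library totals alone the counts in MS were 8 higher and 4 lower, so the balance in MS turned with the scaling, while no called gene changed sign. The list's median log2 fold change was -0.01, 0.10, 0.16 and 0.14, and that of all genes was 0.00, 0.01, -0.01 and 0.00. MGL, methionine gamma-lyase, which breaks methionine down, was lower in all 4 conditions, by the most in MS (17.2 CPM in exa1-1 and 46.3 CPM in wild type, log2 fold change -1.51 ± 0.07; adjusted p = 3.6e-21, edgeR). HMT3, a homocysteine methyltransferase, was lower in MS (-1.03), under NaCl (-1.29) and at 23 °C (-0.63). HMT1, another of that family, was lower in MS (-0.38), at 23 °C (-0.29) and at 39 °C (-0.60). MTO3, an S-adenosylmethionine synthetase, was lower in MS (-0.24) and at 39 °C (-0.13) and higher at 23 °C (0.11). MTO1, the cystathionine gamma-synthase gene whose mutation defines mto1, was higher in all 4, from 0.18 ± 0.04 under NaCl to 0.78 ± 0.04 at 39 °C (413 CPM in exa1-1 and 249 CPM in wild type; adjusted p = 1.16e-23, edgeR). MS1, a methionine synthase, was higher by 0.75 ± 0.03 at 23 °C (adjusted p = 7.64e-25, edgeR) and by 0.37 ± 0.04 under NaCl, and MS3, a second methionine synthase, by 0.56 ± 0.16 at 39 °C. SAHH2, an S-adenosylhomocysteine hydrolase, was higher by 0.80 ± 0.05 at 23 °C (131 CPM in exa1-1 and 75.4 CPM in wild type; adjusted p = 8.77e-20, edgeR) and by 0.33 ± 0.04 under NaCl.

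All 20 genes on a list of DNA methylation and silencing were tested. In exa1-1 3 were higher and 0 lower in MS, 0 higher and 2 lower under NaCl, 6 higher and 0 lower at 23 °C, and 5 higher and 0 lower at 39 °C, beside the same 36.0%, 32.4%, 34.8% and 28.8% of all genes. With library totals alone 6 were higher in MS, and 3 higher and 2 lower under NaCl. The list's median log2 fold change was 0.14, 0.06, 0.15 and 0.22. AGO4, an Argonaute of RNA-directed DNA methylation, was higher at 23 °C (0.64 ± 0.10; adjusted p = 6.06e-07, edgeR) and at 39 °C (0.47 ± 0.13; adjusted p = 0.00346, edgeR). NRPE1, the large subunit of RNA polymerase V, was higher at 39 °C (2.79 CPM in exa1-1 and 1.22 CPM in wild type, 1.23 ± 0.25; adjusted p = 8.12e-05, edgeR). KYP, a histone H3 lysine methyltransferase (0.43), DDM1, a chromatin remodeller (0.39), and CMT3, a DNA methyltransferase (0.33), were higher at 23 °C. CMT3 (0.41) and VIM1, which binds methylated DNA (0.27), were higher at 39 °C. MOM1 was higher in MS (0.44 ± 0.11; adjusted p = 0.00106, edgeR), as were DME, a DNA demethylase (0.24), and CMT3 (0.18), and DRM2 (-0.27) and RDR2 (-0.49) were lower under NaCl. The genes SDC and FWA, which are silenced by DNA methylation in wild-type plants, had 0 to 5 and 0 to 1 reads per library in exa1-1, and 0 to 7 and 0 to 3 in wild type.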

How the data were processed

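Polysome-bound RNA of 24 libraries was analysed from 2 tables that the authors deposited: raw counts for 32833 genes, and FPKM for the 27683 genes with a read. The genome build was TAIR10 and the tools were HTSeq 0.6.1p1 and HISAT2 2.0.4, per the submitters' processing notes; the strand and multi-mapping settings are not given in the sources used here. Counts were tested with edgeR 4.0.16 (TMM, filterByExpr with a minimum count of 10, robust quasi-likelihood fits of the 12 libraries of each experiment, or of all 24 for 23 °C against MS; limma 3.58.1, R 4.3.3), which kept all 3 genes and tested 21453, 20923 and 21917 genes. The fits were checked on simulated data. CPM and FPKM are descriptions. Ratios have exact 95% binomial intervals. The members and lists were chosen with earlier results of these data known. Named genes were the 3 members, their neighbours, the genes sharing the pattern, those most correlated, and up to 4 called list members with the largest changes per condition; others were chosen after their values were seen. TMM factors ran from 0.927 to 1.11 (salt) and from 0.708 to 1.39 (heat). Residuals of same-numbered libraries correlated above 0.1 in 0 of 21 cases, so the libraries were not paired, and 0 of 276 library pairs were identical. The batch label is the same for all libraries. Gene models and sequences come from RefSeq's TAIR10.1 annotation, matched by locus for 32548 genes; its exon lengths equal those implied by the FPKM (within 0.5 bases) for 99.4% of 27501 genes. Similar sequences were found with blastn (BLAST 2.17.0, at least 100 aligned bases).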

Additional observations from a re-analysis of the deposited data

Results flagged for a closer look

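MRD1 was singled out in both stress experiments because its response differed between exa1-1 and wild type by the interaction test (edgeR's quasi-likelihood test). That test used the counts by which MRD1 was selected, with 1 to 16 reads in a wild-type library. Its adjusted p-values are therefore not independent of the selection. The salt interaction was -2.46 on the log2 scale (adjusted p = 0.00215): MRD1 had 30, 22 and 34 reads under NaCl and 277, 222 and 236 in MS in exa1-1, and 5, 5 and 4 under NaCl and 5, 10 and 7 in MS in wild type. The heat interaction was 2.58 (adjusted p = 0.00119): it had 121, 104 and 103 reads at 39 °C and 128, 102 and 103 at 23 °C in exa1-1, and 3, 1 and 2 at 39 °C and 16, 10 and 8 at 23 °C in wild type. Leaving out 1 library at a time kept the salt value between -2.78 and -2.18 and the heat value between 2.23 and 2.96.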

How the results depend on the processing

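The stress responses, the interactions, the neighbour counts, ILA, and HEI10 in MS were repeated with other scalings, no filter, DESeq2 1.42.0, limma on log2(FPKM + 1) and log2(FPKM + 0.1), another set of libraries, a replicate block and leaving out 1 library at a time; the ratios and the pattern with 1 other scaling and without 1 library, the pattern also with other limits, and the gene lists with other scalings only. The replicate block changed no call of the 3 genes (AT1G64795 under NaCl 1.24), and 10 neighbours were called under NaCl with it, against 11. With log2(FPKM + 0.1), AT1G64795 lost its calls at 1.06 (NaCl), -2.14 (39 °C) and 1.91 (23 °C against MS), and the cause was not tested. MRD1 at 39 °C lost its call at 0.06 by library totals and by log2(FPKM + 0.1), and at 0.05 by log2(FPKM + 1), which share the scaling by totals. AT3G05955 gained calls at -0.57 by log2(FPKM + 1) and -0.77 by totals under NaCl, at -1.40, -0.85 and -1.47 at 39 °C by log2(FPKM + 0.1), log2(FPKM + 1) and totals, and at -0.44 at 23 °C against MS by log2(FPKM + 1). Leaving out 1 library gave -0.56 to 0.04 for AT3G05955 at 23 °C against MS, where it changed sign without replicate 2 of exa1-1 at 23 °C, and -0.81 to -0.19 at 39 °C. The salt interaction of AT1G64795 became 0.63 by log2(FPKM + 1) and ran from -3.52 to 0.89 without 1 library, with positive values of 0.57, 0.46, 0.89 and 0.02; that of AT3G05955 ran from -2.56 to 0.74, and its heat interaction from -0.98 to 0.85. The heat interaction of AT1G64795 passed the test at -1.92 (log2(FPKM + 1)), and at -2.64 without replicate 3 of wild type at 23 °C and -2.13 without replicate 2 of wild type at 39 °C. DESeq2 gave no adjusted p for the AT3G05955 interactions. Called neighbours at 39 °C were 4 with DESeq2 and 4 to 6 without 1 library. Under NaCl, called neighbours were 8 with DESeq2 and with each FPKM fit, 9 with all 24 libraries and 8 to 10 without 1 library. The pattern limits held 0 genes at 0.2 CPM (1 by library totals), 2 at a ratio of 5 and 3 at both 1 CPM and 5. The AT1G64795 ratio ran from 370 to 950 under NaCl, from 583 to 1710 at 23 °C and from 168 to 395 at 39 °C without 1 library. These ratios took the wild-type mean as no less than 3 reads over the group, and the 395 rests on that floor. Depth limits the wild-type levels, at 30, 76 and 23 reads in all.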

Other observations

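In the opposite direction, the gene that passed the limits of 1 CPM and a ratio of 5 in all 4 conditions was AT2G06995, with 28 reads over the 12 exa1-1 libraries and 235 over the 12 wild-type libraries; it passed on the TMM scale and not by library totals, where 0 genes passed. FT, the mobile flowering signal, had 40 reads in exa1-1 and 131 in wild type, with a smallest ratio of wild type over exa1-1 of 2.92 over the 4 conditions. Both were named after their values were seen and were not tested here.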
